A study of Cucumis sativus with 33 samples.

Results

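Yellow buds of super ovaries on day 7 (S7, 3 libraries) were compared with yellow buds of normal ovaries on day 4 (N4, 3 libraries), 6 of 33 RNA-seq libraries of female cucumber corollas (Cucumis sativus, inbred line 6457). The libraries were chosen by the ovary type and the day in their labels. S7 corollas came from plants given ample fertilizer and water that carried a single fruit near the growing point, and N4 corollas from plants short of both whose fruits sat elsewhere. Days count from the labeling of the visible ovary, flowers were bagged against pollination, and each library pooled 5 corollas. Both groups are called yellow buds in the design text, but S7 was taken 2 days before the usual opening day of super flowers (day 9) and N4 was taken 1 day before that of normal flowers (day 5). Ovary type, feeding, fruit position and age in days changed together and cannot be told apart here. The other groups serve as a scale: super days 1, 3, 4, 5, 8 and 9 (S1, S3, S4, S5, S8, S9) and normal days 1, 3 and 5 (N1, N3, N5), with 3 libraries each.

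The petals of a flower together form its corolla, and anthesis is the moment when it opens. As a cucumber bud matures its petals expand and turn from green to yellow, a change that in petals generally goes with the conversion of green plastids into carotenoid-rich chromoplasts. Petal opening in many flowers is driven by the late, rapid expansion of petal cells. The question put by this comparison is whether buds that look alike in colour, but that were reached after a different number of days, hold the same transcripts.

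The deposited unit is RPM, a gene's reads scaled to a common library total. S7 libraries held 17702468, 21352395 and 19191455 recovered reads, and N4 libraries held 18537827, 19847078 and 19735277. These totals still include the 1 read taken as added to each of the 23248 genes, which the count tests left out. The 10 genes with most reads took 5.2% to 5.47% of each S7 library and 6.64% to 7.19% of each N4 library. S7 replicate 3 stood apart: across genes its log2(RPM + 1) values correlated at 0.965 and 0.977 with S7 replicates 1 and 2, while those 2 correlated at 0.992 and the N4 libraries at 0.994 to 0.996. Each main count is therefore also given without it. The gene identifiers are not paired with names in the files, and 0 of the 23248 matched the RefSeq gene table, so genes are described by identifier and pattern, and the corolla label could not be set against marker genes.

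Among 18905 genes tested, 2185 were higher and 766 lower in S7 than in N4, together 15.6% (11.6% higher and 4.05% lower). In whole corollas, fewer cells of a type and less RNA per cell cannot be told apart. Calls required limma's adjusted p (Benjamini-Hochberg) to be under 0.05 and a difference of at least 2-fold in log2(RPM + 1), a scale on which changes of low genes come out too small. Of the 766 lower genes 198 (25.8%) differed by 4-fold or more, as did 398 of the 2185 higher genes (18.2%), and 21 in each direction passed 16-fold. After the rescaling described below these shares were 21.8% and 21.5%, and by edgeR on recovered reads, with no pseudocount of 1 RPM, they were 27.7% and 37.6%, so their order depended on the method. The 766 lower genes took 5.18%, 5.13% and 4.56% of the reads of the S7 libraries, against 19.5%, 18.5% and 18% of those of the N4 libraries. The 2185 higher genes took 13.8%, 13.8% and 12.9% in S7, against 4.3%, 4.17% and 4.49% in N4. These shares describe genes chosen for that difference and test nothing.

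Some of the called genes were among the most abundant transcripts. Of the 10 genes with the highest mean in S7, 4 were called higher and 1 lower in S7, while of the 10 with the highest mean in N4, 7 were called lower in S7 and 0 higher, by limma. The lists had 3 genes in common. Of the 100 highest genes, 64 were on both lists, and the called genes were 14 higher and 11 lower among the 100 highest in S7 and 5 higher and 41 lower among the 100 highest in N4. A list chosen by a high level in a group tilts towards genes higher in that group, so these counts are descriptive. Among the 2381 genes that averaged 100 RPM or more over all libraries, 10.2% were higher and 5.59% lower in S7, and among the 6120 genes under 10 RPM the shares were 11.6% and 3.64%.

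**Figure D1:**
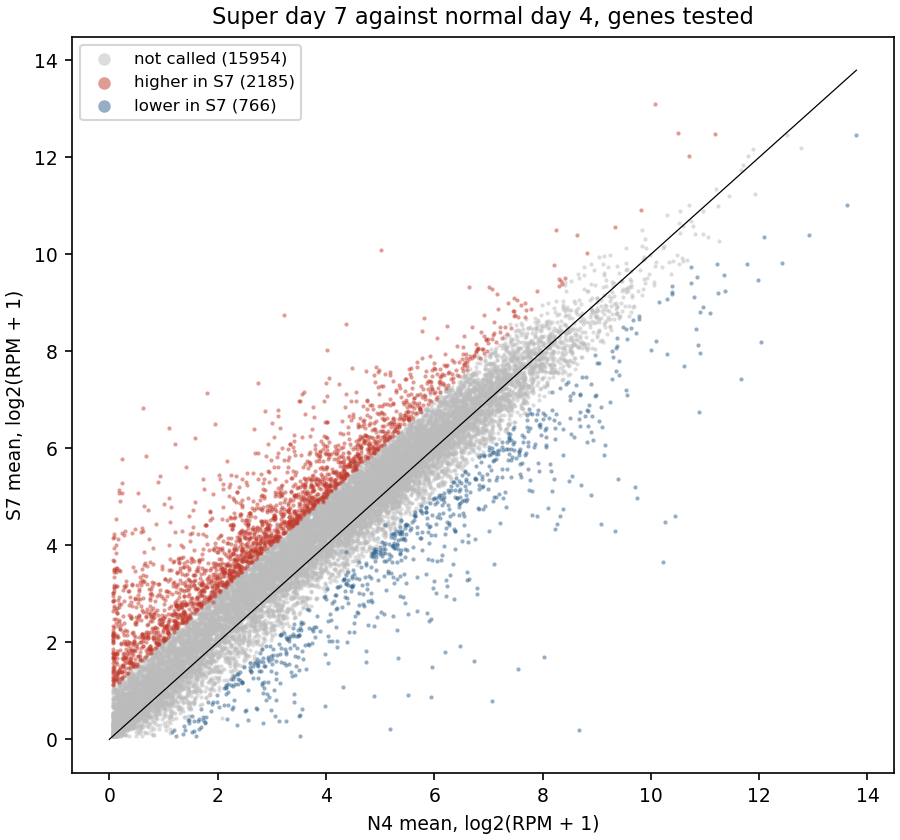
Mean level of each of the 18905 genes tested in S7 (vertical axis) and N4 (horizontal axis), both in log2(RPM + 1), with the line of equal level. Red points are the 2185 genes called higher in S7 and blue points the 766 called lower, and the bulk of grey points lies above the line (median gene 0.28 higher in S7).

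The split between higher and lower genes rested on the scaling. With RPM taken as deposited, the median gene was 0.28 higher in S7 on the log2 scale, and 74% of the calls were higher. After each library was rescaled by the median of its gene ratios, the median gene stood at -0.02 and 2669 genes (14.1%) were called, 1263 higher and 1406 lower, so that 47.3% were higher. edgeR's quasi-likelihood test on recovered reads, which has its own scaling, called 2218 higher and 1648 lower (57.4% higher). The strong differences in the genes named next kept their direction under each of these settings. Those genes were chosen for large changes, so shifts of this size could hardly have turned them.

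Leaving out S7 replicate 3 changed the count little and the membership more. Without it 2897 genes were called (15.3%), 2060 higher and 837 lower. Of the higher genes, 1839 were called both with and without it, which is 84.2% of the 2185 and 89.3% of the 2060. Of the lower genes, 718 were called both ways, 93.7% of the 766 and 85.8% of the 837. Among the 2060 genes called higher without it, replicate 3 lay above all 3 N4 libraries in 1902 (92.3%), where this held for 66.7% of all genes tested. Among the 837 lower genes it lay under all 3 N4 libraries in 791 (94.5%), against 22.4% of all genes tested. The same N4 libraries chose these genes, which alone favours such positions, so the shares are descriptive.

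The gene furthest below its N4 level was Csa5G605130. It had 0.17, 0.14 and 0.1 RPM in the S7 libraries, against 475.3, 382.93 and 371.57 RPM in the N4 libraries. All 3 S7 libraries were thus close to no reads, with 2, 2 and 1 reads each. The groups did not overlap, which was a condition for every gene named here. From 5 reads in S7 and 23741 in N4, the N4 level was 4759 times that of S7, with a 95% exact interval of 2039 to 14657 that covers counting error only. limma gave a difference of -8.49 (SE 0.21, adjusted p 1.7e-21), and -8.47 (SE 0.24, adjusted p 4e-20) without S7 replicate 3. The gene stood near the lowest value of the table in S5, at 0.12 ± 0.0608 RPM (SD, n = 3). It then stood at 209 ± 34.7 RPM in S8 and 107 ± 43.4 in S9, and the change in S8 against S5 was 7.54 (SE 0.21, adjusted p 7.2e-21, limma). In normal corollas it stood at 0.13 ± 0.02 RPM in N3 and 11.1 ± 4.38 in N5.

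Csa3G115050 was likewise low in S7, at 10.51, 11.01 and 13.29 RPM, against 1379.5, 1056.83 and 1129.7 RPM in N4. The replicates of each group lay close together and the groups were far apart, a difference of -6.56 (SE 0.17, adjusted p 3.7e-21, limma), or -6.65 (SE 0.19, adjusted p 4e-20) without S7 replicate 3. By reads the N4 level was 103 times that of S7 (95% exact interval 95 to 111, counting error only). Its high level was brief in both courses. In super corollas it stood at 10.7 ± 0.527 RPM in S5, 836 ± 148 in S8 and 39.4 ± 16.3 in S9, and in normal corollas at 6.25 ± 0.831 RPM in N3 and 5.41 ± 0.94 in N5 on either side of its N4 peak (SD, n = 3 each). The S8 minus N4 difference was -0.97 for Csa5G605130 (adjusted p 0.00028, limma) and -0.51 for Csa3G115050 (adjusted p 0.011), both under the 2-fold limit. edgeR on recovered reads put it at -1.07 (adjusted p 0.00018) for Csa5G605130, past the limit, and at -0.60 for Csa3G115050.

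Csa2G292830 went the other way. It had 120.89, 52.78 and 167.31 RPM in S7, against 0.05, 0.05 and 1.52 RPM in N4. The groups did not overlap, 2 of the N4 libraries had no read, and all 29 N4 reads came from replicate 3. limma put the difference at 6.20 (SE 0.42, adjusted p 1.7e-12), and at 5.85 (SE 0.45, adjusted p 1.8e-11) without S7 replicate 3. The level in super corollas was 116 ± 29.7 RPM in S5 and 114 ± 57.6 in S7, and then 0.877 ± 0.897 in S8 and 0.147 ± 0.0737 in S9. Normal corollas had 0.0667 ± 0.0379 RPM in N3 and 8.2 ± 5.07 in N5, so that in open flowers the gene was lower in S9 than in N5 (-2.83, SE 0.42, adjusted p 6.4e-06, limma), the opposite of its direction in the yellow bud.

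Csa3G104850 was also higher in S7, at 505.81, 192.02 and 591.1 RPM, against 15.48, 0.25 and 9.32 RPM in N4. The groups did not overlap, but the N4 libraries ranged widely, with N4 replicate 2 far under the others. The difference was 6.02 (SE 1.14, adjusted p 4.6e-05, limma), 5.71 without S7 replicate 3 (adjusted p 0.00033), 4.89 without N4 replicate 2 and 6.75 without N4 replicate 1. In super corollas it stood at 1383 ± 185 RPM in S5, 429.6 ± 210.2 in S7, 2.27 ± 2.02 in S8 and 0.597 ± 0.31 in S9 (SD, n = 3). In normal corollas it stood at 25.3 ± 24.1 RPM in N3 and 112 ± 61.8 in N5. In green buds the gene was already higher in super corollas, at 524.11, 86.96 and 662.11 RPM in S1, against 0.26, 0.1 and 32.54 RPM in N1 (6.44, SE 1.14, adjusted p 0.00039, limma). In S9 against N5 it was lower (-5.97, SE 1.14, adjusted p 0.00014, limma).

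**Figure D2:**
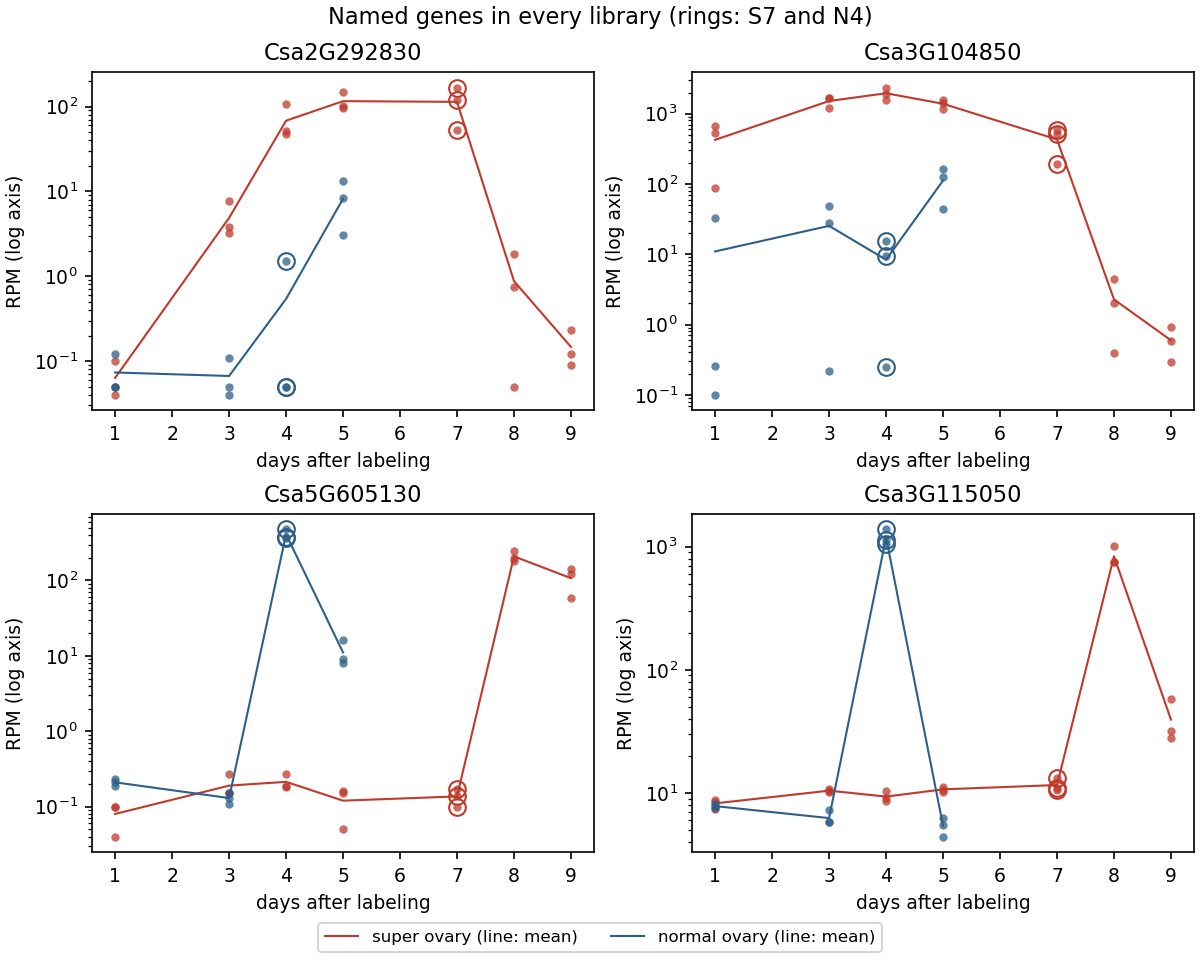
RPM (log axis) by days after labeling for the 4 named genes, with 1 point per library, lines through group means, super corollas in red and normal corollas in blue, and rings on S7 and N4. Csa5G605130 and Csa3G115050 are low in S7 and high in N4 and S8, while Csa2G292830 and Csa3G104850 are high in S7, low in N4 and low again in S8 and S9.

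The calls were then followed through comparisons that share no library with S7 or N4, though the fit shared each gene's variance. Many of the lower genes rose in super corollas by day 8. Of the 766, 432 (56.4%) rose in S8 against S5, where 9.67% of all genes tested rose, and 58 (7.57%) fell, where 28.8% of all genes fell. After rescaling 55% of the lower genes rose and 16.4% of all genes, and without S7 replicate 3 the share was 51.6%. A brief maximum in S8, called as a rise in S8 against S5 followed by a fall in S9 against S8, was found in 205 of the 766 (26.8%) and in 2.09% of all genes. After rescaling these shares were 22.3% and 3.08%, and without S7 replicate 3 the lower genes' share was 25.7%. Between S9 and S1, 337 lower genes (44%) rose, beside 16.8% of all genes, and 133 (17.4%) fell, beside 30.3%. In the normal course, 260 of the 766 (33.9%) rose in N5 against N3 and 123 (16.1%) fell, beside 10.9% and 13.3% of all genes.

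The higher genes did not share a single course. In S8 against S5, 880 of the 2185 (40.3%) fell and 361 (16.5%) rose, beside 28.8% and 9.67% of all genes. After rescaling 24.3% fell and 30.9% rose, beside 16.6% and 16.4% of all genes. Which was more common thus depended on the scaling, which also moved the shares over all genes. Without S7 replicate 3, 663 of 2060 (32.2%) fell and 453 (22%) rose. In N5 against N3, 524 (24%) fell and 452 (20.7%) rose, beside 13.3% and 10.9% of all genes. The order was turned after rescaling (21.9% and 28.2%, beside 11.8% and 12.5% of all genes). It was also turned without S7 replicate 3 (20.9% and 23.8%). In S9 against S1, 716 (32.8%) fell and 721 (33%) rose, beside 30.3% and 16.8% of all genes. After rescaling 21.7% fell and 47.3% rose, beside 21.8% and 22.8% of all genes, and without S7 replicate 3 the counts were 515 (25%) and 822 (39.9%). A brief minimum in S8, the counterpart of the maximum above, was found in 96 of the 2185 (4.39%), beside 3.48% of all genes, and after rescaling in 2.45% beside 2.2%. What many of the higher genes had in common was a low value in N4. N4 held the lowest of the 11 group means in 1305 of them (59.7%), and S7 the highest in 228 (10.4%), beside 23.3% and 5.17% of all genes. After rescaling N4 held the lowest mean in 50.2% of the higher genes and 11.9% of all genes, and S7 the highest in 12.9% and 4.03%. Among the 766 lower genes N4 held the highest mean in 453 (59.1%) and S7 the lowest in 67 (8.75%), beside 7.55% and 2.23% of all genes. After rescaling these were 61.4% and 7.61% of the lower genes, beside 17.5% and 3.37% of all genes. N4 and S7 chose the genes, so these shares are descriptive.

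**Figure D3:**
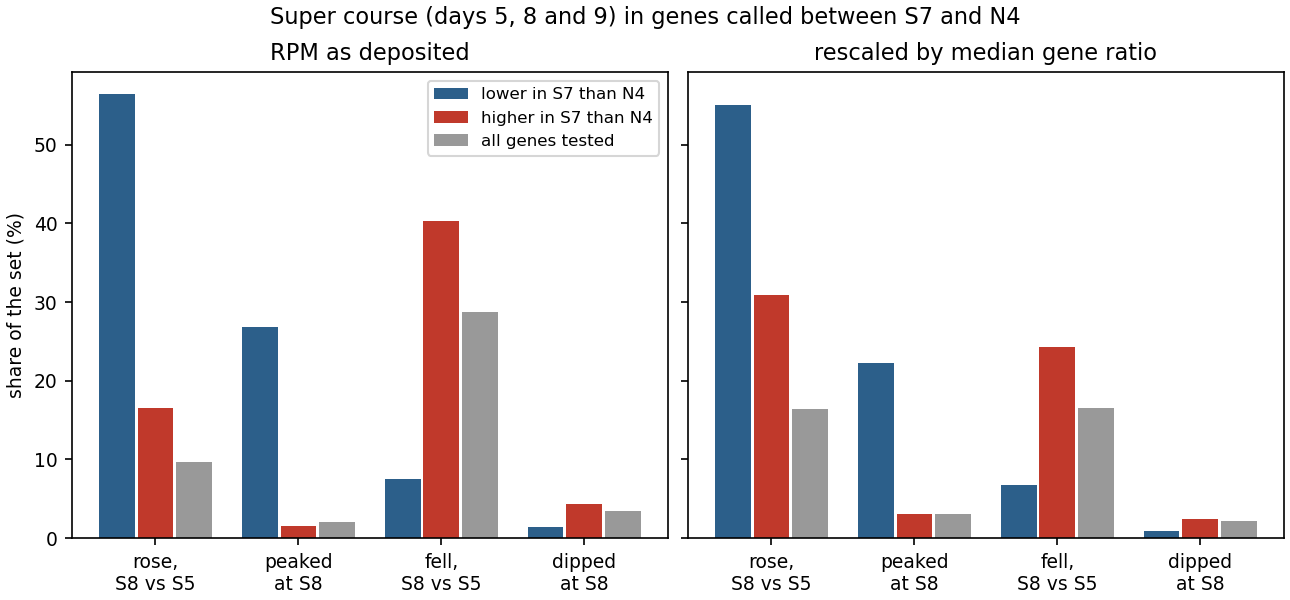
Share of genes (%) that rose, peaked, fell or dipped in the super course around S8, for the genes lower in S7 (blue), those higher in S7 (red) and all genes tested (grey), with RPM as deposited on the left and rescaled on the right. The blue bars stand at 56.4% and 55% for a rise in S8 against S5, and the red bars change their order with the scaling.

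The median levels were taken in RPM as deposited, with no median over all genes beside them. The median of the 766 lower genes was 13.1 RPM in S5, 15.2 in S7, 33.4 in S8 and 21.2 in S9, and 12.8 in N3, 49.3 in N4 and 19.8 in N5. The median of the 2185 higher genes was 20.7 RPM in S5, 18.8 in S7, 12.2 in S8 and 14.8 in S9, and 19.5 in N3, 5.32 in N4 and 16.3 in N5. Its fall from S5 to S8 is not a course that these genes shared. On this scaling 28.8% of all genes fell in S8 against S5, and after rescaling more of the higher genes rose (30.9%) than fell (24.3%). S7 and N4 themselves chose these genes, and the remaining groups did not.

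Few of the differences were called in the same direction in open flowers or green buds, where few genes were called at all. The shares were nonetheless above those over all genes, in both directions. In open flowers, 165 of the 2185 higher genes (7.55%) were also higher in S9 than in N5, beside 2.93% of all genes, and 113 (5.17%) were lower, beside 2.25%. Of the 766 lower genes, 36 (4.7%) were also lower in S9 and 79 (10.3%) were higher, beside 2.25% and 2.93% of all genes. More of the lower genes thus had the opposite direction at flowering than the same one. In green buds, 47 of the higher genes (2.15%) were higher in S1 than in N1, beside 0.973% of all genes, and 19 (0.87%) were lower, beside 0.27%. Of the lower genes, 10 (1.31%) were lower in S1 and 15 (1.96%) were higher, beside 0.27% and 0.973% of all genes. S7 also differed from the green yellow bud of normal ovaries, though in fewer genes: 1649 (8.72%) were called in S7 against N3, or 1909 (10.1%) without S7 replicate 3. The later super yellow bud differed from N4 in 2640 genes (14%, S8 against N4). These comparisons share S7 or N4 libraries with the main one, so the genes they have in common with it are not counted here, and the difference between their counts was not tested.

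On a scale of progress along the normal course, S7 and N4 were not told apart, which does not show that they were alike. Each library was projected on the line from the N1 mean (0) to the N5 mean (1) over all genes tested. S7 replicates 1, 2 and 3 stood at 0.663, 0.628 and 0.501, and N4 replicates 1, 2 and 3 at 0.687, 0.656 and 0.664. The groups overlapped, since S7 replicate 1 lay above N4 replicate 2. Means were 0.597 ± 0.085 in S7 and 0.669 ± 0.016 in N4 (SD, n = 3 each), a difference of -0.072 with an exact two-sided permutation p of 0.2, where 3 against 3 allows no p under 0.1. Without S7 replicate 3 the S7 mean was 0.646 and the difference -0.024 (exact permutation p 0.4, smallest possible 0.1), and with rescaling as well it was 0.001. S5 stood at 0.284, N3 at 0.394 and S8 at 0.928, so S7 lay between S5 and S8, apart from both. A library's place on this line says nothing of its distance from it, and a brief maximum or minimum in N4 moves it where the gene also differs between N5 and N1. Across genes, S7 replicates 1, 2 and 3 correlated at 0.955, 0.951 and 0.946 with the N3 mean. With the N4 mean they correlated less, at 0.932, 0.936 and 0.932.

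**Figure D4:**
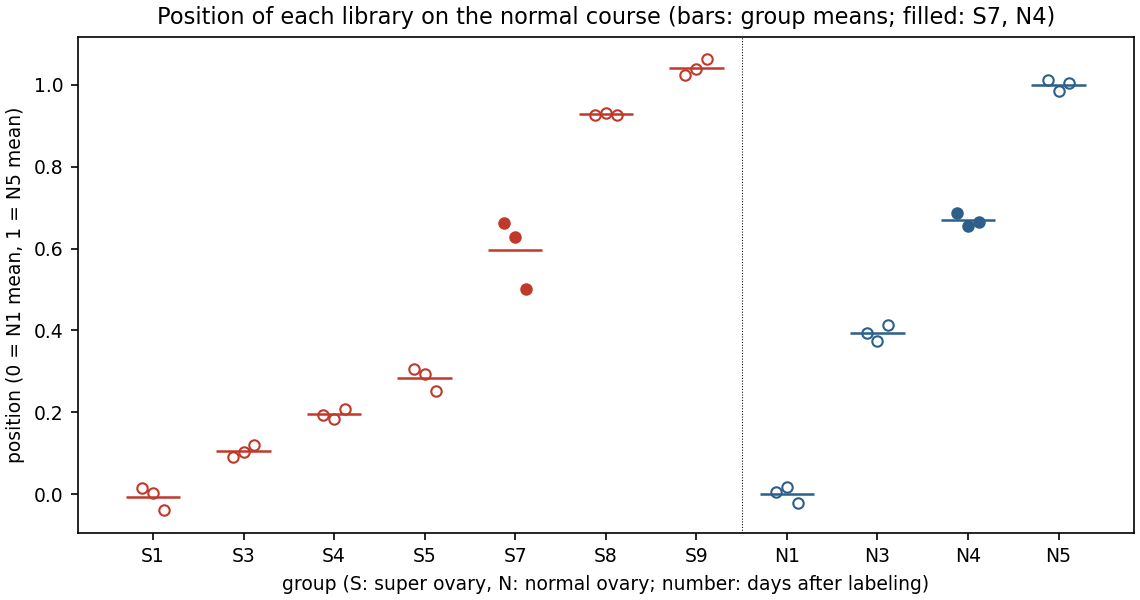
Position of each library on the line from the N1 mean (0) to the N5 mean (1), with super groups in red on the left, normal groups in blue on the right, bars at group means and S7 and N4 filled. S7 replicate 3, at 0.501, lies under the other S7 libraries (0.663 and 0.628) and under all 3 N4 libraries.

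Genes in which S7 replicate 3 departed from its fellows often changed around S8 in the super course. It lay at least 2-fold above both other S7 libraries on the log2(RPM + 1) scale in 237 genes and at least 2-fold below both in 377, while replicate 1 did so in 33 and 66 and replicate 2 in 3 and 16. Of the 377 genes low in replicate 3, 300 (79.6%) rose in S8 against S5 and 8 (2.12%) fell. Of the 237 genes high in it, 147 (62%) fell and 16 (6.75%) rose. Replicate 1 departed the opposite way in fewer genes: of the 33 in which it was high, 26 (78.8%) rose and 0 fell, and of the 66 in which it was low, 35 (53%) fell and 11 (16.7%) rose. Over all genes 9.67% rose and 28.8% fell by limma. The correlation of replicate 3 across genes with the S5 mean was 0.966 and with the S8 mean 0.914, whereas replicate 1 had 0.937 and 0.949 and replicate 2 had 0.947 at both. Whether its pooled corollas were younger buds was not tested, since the labels give the day alone. Csa5G605130 and Csa3G115050 were low in all 3 S7 libraries, with 0.1 and 13.29 RPM in replicate 3.

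**Figure D5:**
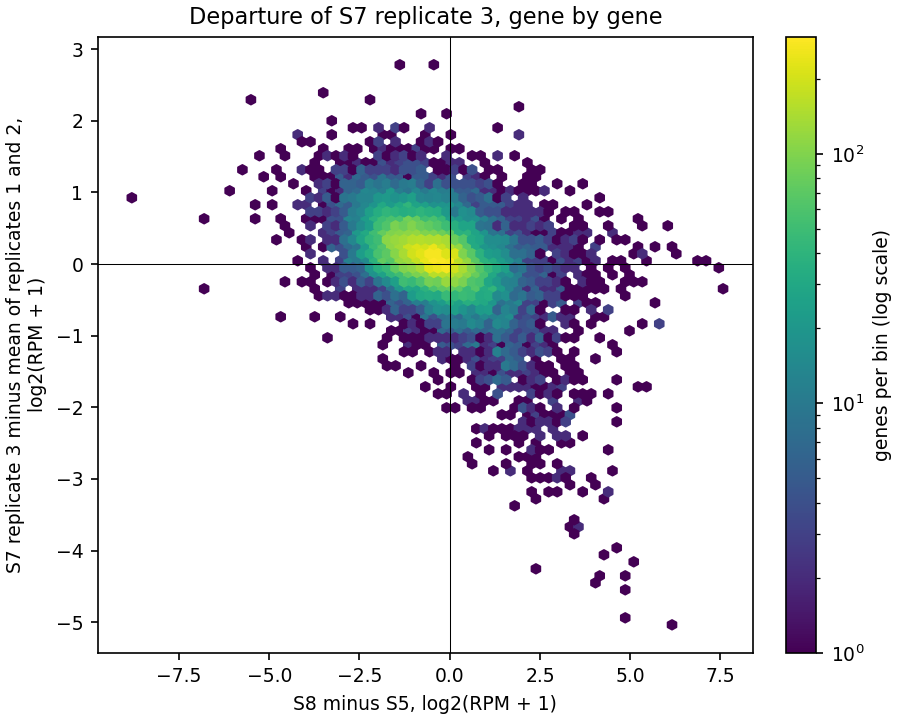
For each gene tested, the log2(RPM + 1) value of S7 replicate 3 minus the mean of replicates 1 and 2 (vertical axis) against the S8 minus S5 difference (horizontal axis), with colour for the number of genes per bin on a log scale. The 377 genes at least 2-fold under both other replicates include 300 called as rising in S8 against S5.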

How the data were processed

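The authors deposited RPM values for 23248 genes in 33 libraries, as the name of the deposited table says. TopHat and HTSeq were used per the submitters' processing notes. Versions, build and annotation: not given in the sources used here. The table holds no value of 0. Values lay near whole multiples of 1 step per library, 100% of them within 0.25 of a read. Within 0.1 of a read lay 94.4% to 100% of the low values of 30 libraries (97.9% or more in S7 and N4) and 28.5% to 92.5% in 3 others, since values are rounded to 0.01 RPM. Reads were taken as steps minus 1, assuming that 1 read had been added to every gene. The count tests left out those 3, none of them S7 or N4.

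limma 3.58.1 (R 4.3.3) was fitted to log2(RPM + 1) with 11 group means over all 33 libraries and a variance trend. Two-sided tests covered the genes averaging 1 RPM or more in any group, with Benjamini-Hochberg adjustment within each comparison. edgeR 4.0.16 and DESeq2 1.42.0 on recovered reads were alternatives, and the code was tested on simulated data. Intervals on reads are exact, use reads summed over libraries and cover counting error only, not the spread between pools. PCR duplicates were not marked, so the intervals may be too narrow even for that error.

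Named genes were the 2 with the largest change in each direction among calls with at least 10 RPM in the higher group, no overlap of libraries, and a call also without S7 replicate 3. With no gene names, no functional list could be formed. The comparison, the rule and the classes around S8 were chosen with earlier results of these data known. The replicates are called biological, but nothing says that pools came from separate plants, so p-values measure the spread between pools. Replicate pairs differed by more than sampling noise (chi-square per degree of freedom 7 to 74.6).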

Additional observations from a re-analysis of the deposited data

How the results depend on the processing

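The call count of S7 against N4 was 1627 with a pseudocount of 5, or 1729 without S7 replicate 3, and lay between 2669 and 4252 under the other settings, with 3866 by edgeR and 3875 by DESeq2. Leaving out 1 library at a time gave 2838 to 3164 calls. Genes higher in S7 that fell in N5 against N3, together with genes lower in S7 that rose there, numbered 784, or 417 with a pseudocount of 5, and 698 to 875 with a library left out. Counted likewise over S9 against S1 the number was 1053, with 1712 and 521 at pseudocounts of 0.1 and 5. It was 852 to 1293 with a library left out. These numbers leave out genes going the other way. In N5 against N3, 452 higher genes rose and 123 lower genes fell. In S9 against S1 these were 721 and 133, beside the 716 and 337 that make up the 1053. Without S7 replicate 3 they were 822 and 170, beside 515 and 337, so which combination was larger turned on that library. Genes with the same direction in S9 against N5 numbered 201, with 370 and 85 at those pseudocounts, 376 by edgeR, and 180 to 223 with a library left out. The opposite direction there was held by 113 higher genes and 79 lower genes, beside the 165 and 36 that make up the 201. The position difference ran from -0.105 to -0.024 with a library left out. The cause of these shifts was not tested. The lower genes that rose in S8 against S5 numbered 774 after rescaling and 894 by edgeR, and those with a maximum in S8 numbered 313 and 372. The named genes kept their direction and their call under every setting run for them, with Csa5G605130 at -12.48 by edgeR. They were chosen for large changes and for a call also without S7 replicate 3, so this says little of other genes.

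Same-numbered deviations correlated at 0.21, -0.22 and 0.07, so the values gave no sign that replicate numbers paired the samples. A replicate block gave 2951 calls, as without it. Each group holds every replicate number once, so the block leaves the fold changes as they were and that count cannot decide the question. Changes in genes near the lowest value are limited by depth. A gene with 2 reads, plus the 1 taken as added to every gene, stands at 0.14 to 0.169 RPM in these 6 libraries.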

Other observations

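Genes that changed in none of 4 course comparisons (N5 against N1, N5 against N3, S9 against S1, S8 against S5) made up 348 of the 2185 genes higher in S7 (15.9%) and 116 of the 766 lower ones (15.1%), beside 39.5% of all genes tested. Higher in super corollas both as green buds and as open flowers were 12 genes, of which 2 were higher and 2 lower in S7 than in N4. Lower at both of those stages were 8 genes, of which 1 was higher and 1 lower in S7 than in N4. Over all genes tested 11.6% were higher and 4.05% lower in S7. The 12 and 8 genes are too few to set against those shares.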
